A study of Mus musculus with 160 samples.

Results

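The respiratory chain genes described here were 93 nuclear protein-coding genes among the 39179 genes counted in mouse distal colon. They were chosen by symbol alone, as all protein-coding genes whose name starts with Ndufa, Ndufb, Ndufc, Ndufs, Ndufv, Uqcr, Cox4i, Cox5, Cox6, Cox7, Cox8 or Atp5, together with Sdha, Sdhb, Sdhc and Sdhd. No measured value entered this rule, though earlier results of these data were known when it was set. The set held 36 genes for subunits of complex I, 8 for complex I assembly factors, 4 for complex II, 8 for complex III, 20 for complex IV, 16 for ATP synthase, and Atp5s, a factor coupled to ATP synthase. A further 11 genes with matching symbols were pseudogenes or non-coding and were left out.

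The inner mitochondrial membrane carries a chain of complexes that pass electrons from NADH (complex I) and succinate (complex II) through ubiquinone, complex III and cytochrome c to complex IV, where oxygen is reduced, and ATP synthase uses the resulting proton gradient to make ATP. Complexes I, III, IV and ATP synthase are assembled from nuclear and mitochondrial gene products, while all 4 subunits of complex II are nuclear. In the colon, mature epithelial cells burn butyrate from bacterial fermentation in their mitochondria, so that the epithelium is a strongly oxidative tissue.

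The 160 samples came from 4 mouse lines, each with homozygous knockouts and wild-type littermates of 8 to 10 weeks of age. The Nckap1l line (labelled HEM1, with 16 knockout and 15 wild type), the Dock2 line (18 and 24) and the Gpsm3 line (20 and 20) were labelled strain C57BL6/J. The Dok3 line (26 and 21) was labelled strain 129. By the study's methods, knockout males were re-derived with C57BL6/J females and heterozygotes were then crossed with each other. Within each line some mice drank dextran sulfate sodium (DSS), which injures the colonic epithelium, for 5 days, at 3% in the Dock2 and Gpsm3 lines and 3.5% in the Dok3 line by the labels, and tissue was taken on day 10, or day 12 in the Nckap1l line. By the study's methods the Nckap1l line received a lower dose than the others, and the Dok3 line was first treated at 3%. The labels do not say which samples received DSS, so inflammation was read from the RNA instead, as a score equal to the mean log2 CPM (a gene's count scaled to the size of its library) of 26 inflammation genes such as S100a8, Il1b and Cxcl1. All samples of the Gpsm3 and Dok3 lines were labelled male. The Nckap1l line held 12 females and the Dock2 line 20.

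Total counts ranged from 4344988 to 19993833 per sample. Their medians were lowest in the Dok3 line, 12376000 in wild type and 14690000 in knockout, against 15924000 to 16877000 in the other groups. The mean log2 CPM of 15 epithelial marker genes lay between 6.72 and 9.32 in all samples, so that epithelial RNA was present throughout. In 34 samples (17 of the Nckap1l line, 5 of Dock2, 3 of Gpsm3 and 9 of Dok3) the summed CPM of 12 skin keratinocyte or 15 striated muscle markers was over 10 times the median sample's. Sex-linked transcripts went against the label in 5 samples of the Dok3 line (3 knockout, 2 wild type). The median CPM of the targeted gene in knockout and wild type was 14.8 and 27.2 for Nckap1l, 22.5 and 34.2 for Dock2, 0.572 and 3.21 for Gpsm3, and 3.16 and 3.63 for Dok3, with overlapping ranges in every line. The labels do not give the deleted exons, and counts over the whole gene were not a check of the Dok3 labels. Nor do they say whether each sample came from a separate mouse, so p-values measure the spread between samples.

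Some genes of the chain hold promoter motifs bound by known regulators of mitochondrial genes. The 4 promoters shown were picked because they hold these motifs and belong to members of complexes I to IV lower in the Dok3 than the Gpsm3 line. Cox6a1 and Uqcr11 were not called lower against the Dock2 line in wild-type males. The sequences are those of RefSeq on build GRCm38.p6, from 250 bases before to 50 bases after the transcription start, on the gene's strand. Capitals mark the letters GCGCATGC (the core bound by nuclear respiratory factor 1), CCGGAAG (an ETS core, the family of GA-binding protein) or AAGATGGC (a YY1 core, whose letters include a start codon), on either strand. In the palindrome GCGCATGCGC, matches on both strands overlap.
Sdhb (chr4:140961021-140961320, plus strand; complex II): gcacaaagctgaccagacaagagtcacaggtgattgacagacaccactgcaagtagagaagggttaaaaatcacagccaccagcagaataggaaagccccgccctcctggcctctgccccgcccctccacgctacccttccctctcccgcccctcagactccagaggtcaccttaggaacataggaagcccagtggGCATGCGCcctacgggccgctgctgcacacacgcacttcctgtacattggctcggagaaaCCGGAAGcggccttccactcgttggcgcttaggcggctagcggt
Cox6a1 (chr5:115348909-115349208, minus strand; complex IV): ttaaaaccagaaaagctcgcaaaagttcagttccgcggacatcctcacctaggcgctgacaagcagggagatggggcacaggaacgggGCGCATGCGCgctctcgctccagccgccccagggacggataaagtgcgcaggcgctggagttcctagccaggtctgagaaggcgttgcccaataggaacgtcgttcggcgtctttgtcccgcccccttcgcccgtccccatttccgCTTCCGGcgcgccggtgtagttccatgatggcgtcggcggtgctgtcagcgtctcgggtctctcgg
Uqcr11 (chr10:80406772-80407071, minus strand; complex III): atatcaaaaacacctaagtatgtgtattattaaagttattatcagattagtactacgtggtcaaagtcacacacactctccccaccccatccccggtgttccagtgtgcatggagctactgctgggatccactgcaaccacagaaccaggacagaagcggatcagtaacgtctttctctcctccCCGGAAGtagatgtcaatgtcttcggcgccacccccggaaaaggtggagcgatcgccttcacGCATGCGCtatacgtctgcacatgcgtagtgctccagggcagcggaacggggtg
Ndufc1 (chr3:51408906-51409205, minus strand; complex I): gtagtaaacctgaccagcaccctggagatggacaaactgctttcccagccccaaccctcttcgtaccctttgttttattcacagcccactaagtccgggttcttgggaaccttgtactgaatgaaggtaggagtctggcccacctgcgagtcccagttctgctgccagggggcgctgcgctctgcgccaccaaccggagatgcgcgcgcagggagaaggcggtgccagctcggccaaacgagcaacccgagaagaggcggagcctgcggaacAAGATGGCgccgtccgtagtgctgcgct
Promoters were found for 74 of the 93 members. The nuclear respiratory factor 1 core stood in 12 of them (16.2%), against 3.05% of the promoters of 27025 gene symbols. The ETS core was in 18 (24.3%, against 9.93%), the YY1 core in 10 (13.5%, against 3.19%), and at least 1 of the 3 in 33 (44.6%, against 14.9%). These counts describe letters in the window and not binding.

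Members took a median of 0.891% of each sample's counts. Their summed CPM ranged from 5391 to 12239 over the 160 samples, with a median of 8936, of which ATP synthase held 3497, complex I 2013, complex IV 1591, complex III 996 and complex II 678 (medians of each sum). The median CPM was at least 10 for 78 members. The highest was Atp5b, the catalytic beta subunit of ATP synthase, with a median CPM of 1047, ahead of the alpha subunit gene Atp5a1 with 913. In complexes II, III and IV the highest were Sdha, the flavoprotein subunit of complex II (313), Uqcrc2, a core subunit of complex III (210), and Cox4i1, the ubiquitous form of complex IV subunit 4 (286). Per kilobase of exon, the highest levels were those of Atp5a1 (291 CPM per kb), Cox6a1, the ubiquitous form of complex IV subunit 6a (264), and Atp5b (247).

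The 15 members with a median CPM under 10 were 5 complex I assembly factors, Atp5l, Atp5s, Ndufs5 and 7 isoforms known mainly from other tissues. The testis form genes Cox8c and Cox7b2 had a median CPM of 0. Cox6a2 and Cox8b, the heart and skeletal muscle forms of complex IV subunits 6a and 8, had medians of 0.124 and 0.437 CPM. Their levels followed the striated muscle and skin markers: Cox6a2 was between 0 and 0.544 CPM in the 126 samples without those markers and between 0.249 and 27.2 in the 34 with them, and Cox8b between 0 and 3.42 against 0.496 to 25.3. The hypoxia-induced complex IV gene Ndufa4l2 showed the same division, with a median of 0.668 CPM (range 0.245 to 3.19) without the markers and 16.7 (0.615 to 35.2) with them. The summed CPM of all members had a median of 9070 (5984 to 12239) in samples without the markers and 7811 (5391 to 10427) in samples with them, and the ranges overlapped. Fewer cells of a type and less RNA per cell cannot be told apart in these bulk samples.

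By line and genotype, the median summed CPM of the members was 8356 in Nckap1l wild type (5864 to 10193) and 9030 in knockout (6109 to 10680). It was 8947 (7429 to 10154) and 9344 (6694 to 10855) in the Dock2 line. Sex was uneven in the Nckap1l line, with 8 of 15 wild-type and 4 of 16 knockout samples female. The Gpsm3 line held the highest medians, 9527 in wild type (8583 to 12239) and 9647 in knockout (7082 to 11321). The Dok3 line held the lowest wild-type median, 8111 (6488 to 10067), with 8335 in knockout (5391 to 10480), and all 8 ranges overlapped.

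**Figure D1:**
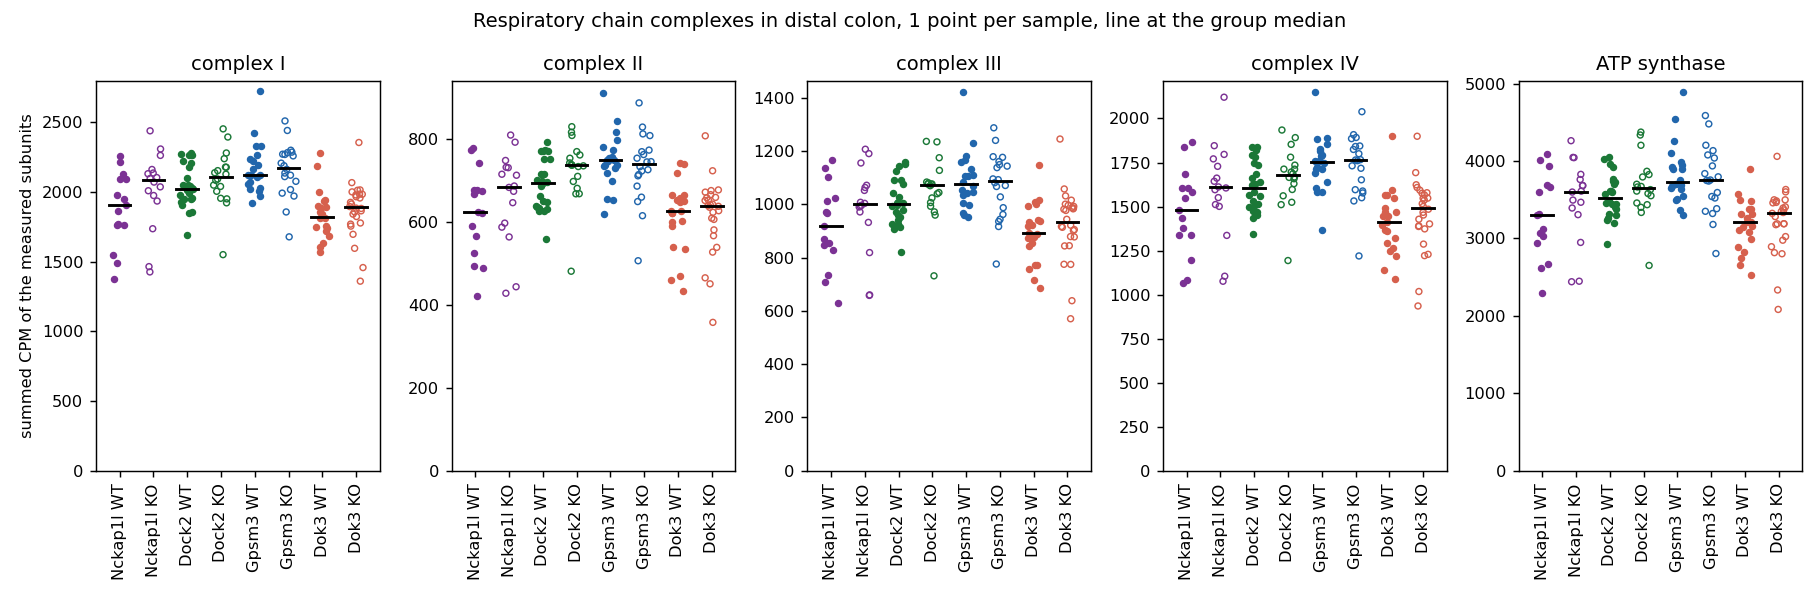
Summed CPM of the genes of each complex (y axis) in each sample, by line and genotype (x axis), with 1 point per sample and a line at the group median. Medians of the Dok3 groups sit under those of the Gpsm3 groups in every complex, and knockout and wild type of a line overlap throughout.

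The knockouts were compared with the wild-type samples of the same line, over treated and untreated mice together, with sex as a covariate where both sexes were present. No member passed the test in any line (edgeR's quasi-likelihood test, Benjamini-Hochberg adjusted p under 0.05; 91 members tested in the Nckap1l line and 89 in each other line). The background was as low, with 0% of all genes tested called in the Nckap1l line, 0.034% in Dock2, 0.00569% in Gpsm3 and 0% in Dok3. At an unadjusted p under 0.05 there were 0 members in the Nckap1l line, 2 in Dock2, 1 in Gpsm3 and 0 in Dok3, and DESeq2 and limma-voom called 0 in each. The smallest p in the Gpsm3 line was that of Cox7a2l, which encodes a factor joining complexes III and IV, with a log2 change of -0.11 (SE 0.05, edgeR adjusted p = 0.936). In the Dock2 line it was Sdhc, a membrane anchor of complex II, with 0.081 (SE 0.039, edgeR adjusted p = 0.956). In the Nckap1l line Cox6b2, a testis form of subunit 6b, had 0.33 (SE 0.17), and in the Dok3 line Ndufa4l2 had -1.01 (SE 0.66). The members' median log2 change was 0.033, 0.036, -0.0058 and 0.024 in the Nckap1l, Dock2, Gpsm3 and Dok3 lines.

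In the Nckap1l, Dock2 and Dok3 lines, samples with a higher inflammation score had less RNA of many respiratory chain genes, by a few percent per unit of score. Slopes are log2 changes in CPM per unit of the score, with genotype and sex in the fit. The score spanned -0.61 to 6.57 in the Nckap1l line, -0.80 to 6.07 in Dock2, -1.03 to 5.60 in Gpsm3 and -1.11 to 7.63 in Dok3. In the Dok3 line 61 of 89 members (68.5%) fell and 4 rose, against 30.6% of all genes lower and 32.6% higher (edgeR, Benjamini-Hochberg adjusted p under 0.05). In the Dock2 line 38 of 89 (42.7%) fell and 2 rose, against 26.9% and 28%. In the Nckap1l line 38 of 91 (41.8%) fell and 1 rose, against 24.6% and 22.9%. In the Gpsm3 line 21 of 89 (23.6%) fell and 4 rose, against 26% and 27.6%, a share of lower members no larger than the background. Slopes there were under 0 for 60 of the 89 members, against 8797 of all 17545 genes tested. The members' median slope was -0.036, -0.030, -0.012 and -0.038 in the Nckap1l, Dock2, Gpsm3 and Dok3 lines, where that of all genes tested lay between -0.0015 and 0.0014.

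Several of these counts depended on the samples or on the score. The counts under other samples, scores and covariates are given without the share of all genes called there. They are therefore not set against a background. Without the 17 samples of the Nckap1l line that held skin or striated muscle markers, 14 samples remained and 1 member was called lower and 0 higher, and without its highest-scoring sample 24 were lower. Without the 5 such samples of the Dock2 line, 21 members were lower. Without the 5 samples of the Dok3 line whose sex transcripts went against the label, 62 were lower there and 3 higher. With the score built from interferon-induced genes in place of the inflammation genes, 1 member was lower in each of the Nckap1l, Dock2 and Gpsm3 lines and 45 in the Dok3 line. With the run of consecutive numbers in the sample labels, a possible batch, as a covariate, the lower members were 44 in Nckap1l, 22 in Gpsm3 and 61 in Dok3. The genes of other cells moved with the score as well. All 8 macrophage and 8 neutrophil markers tested rose in every line. The inflammation score had a Pearson r of 0.98 to 0.99 with the mean of the neutrophil markers in every line, so their rise is not a separate result. Of 10 markers of absorptive colonocytes 8 or 9 fell in every line, with a median slope between -0.40 and -0.30. Of 15 general epithelial markers 10 fell and 0 rose in the Dok3 line, 9 fell and 1 rose in Nckap1l, 2 fell and 5 rose in Dock2 (median slope 0.036) and 2 fell and 1 rose in Gpsm3. Of all genes, 24.6%, 26.9%, 26% and 30.6% fell and 22.9%, 28%, 27.6% and 32.6% rose in the Nckap1l, Dock2, Gpsm3 and Dok3 lines. The members' mean log2 CPM was taken over the 78 with a median CPM of at least 10. Its Pearson r with the epithelial score, the mean over the 15 epithelial markers, was 0.74, 0.56, 0.66 and 0.75 in the same order of lines. With the inflammation score it was -0.40, -0.27, -0.27 and -0.63. The part of these cell markers in the members' slopes was not tested, other than with the epithelial score as a covariate. That covariate left 24 members lower in the Nckap1l line, 60 in Dock2, 28 in Gpsm3 and 37 in Dok3.

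**Figure D2:**
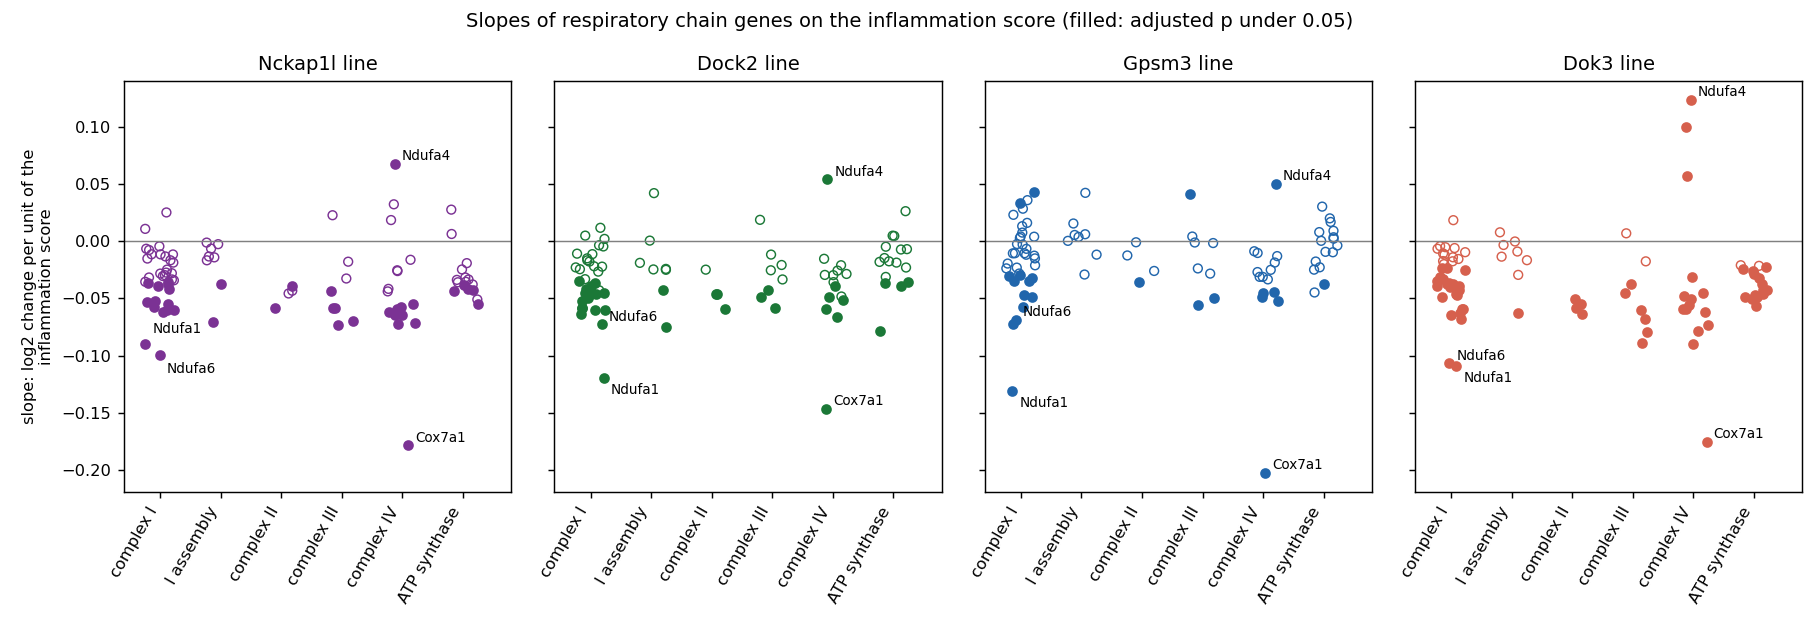
Slope of each member on the inflammation score (log2 change in CPM per unit of score, y axis) by complex (x axis) in each line, with filled points for an adjusted p under 0.05 and without Ndufa4l2 and Atp5s. Most points lie under 0 in each line, and the members' median slope is shallowest in the Gpsm3 line, at -0.012.

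Among the 36 complex I subunits, 14, 19, 11 and 23 fell with the score in the Nckap1l, Dock2, Gpsm3 and Dok3 lines. Of all genes, 24.6%, 26.9%, 26% and 30.6% fell. Ndufa1, an X-linked subunit of the membrane arm (chrX:37187588-37191163, minus strand), had a median of 40.7, 47.8, 51.7 and 44.6 CPM in the 4 lines and 28.8, 36.7, 32.5 and 28.6 CPM in the highest-scoring sample of each. It was thus under the line's median there each time. Its slope was -0.090, -0.12, -0.13 and -0.11 (edgeR adjusted p between 3.50e-09 and 4.87e-05). Ndufa6, an accessory subunit at the matrix arm, had slopes of -0.100, -0.073, -0.069 and -0.11. The core catalytic subunits Ndufs1, which carries iron-sulfur clusters, and Ndufv1, the NADH-binding flavoprotein, passed the test in some lines, Ndufs1 in Dock2 and Dok3 (-0.042 and -0.043) and Ndufv1 in Dok3 (-0.037). Of the 8 assembly factors 2, 2, 0 and 1 fell, against the same shares of all genes.

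In complex II, all 4 subunits fell in the Dok3 line, 3 in Dock2, 2 in Nckap1l and 1 in Gpsm3. The counts of this paragraph stand against 24.6%, 26.9%, 26% and 30.6% of all genes in the Nckap1l, Dock2, Gpsm3 and Dok3 lines. Sdha, the succinate-oxidizing subunit, was lower in every line, with slopes of -0.058, -0.060, -0.035 and -0.064 in the Nckap1l, Dock2, Gpsm3 and Dok3 lines (largest edgeR adjusted p = 0.00955). Of the 8 complex III genes 5, 3, 2 and 6 fell, and Uqcrfs1, the Rieske iron-sulfur protein, passed the test in the Dok3 line with -0.045 (SE 0.012, edgeR adjusted p = 0.00124). Of 16 ATP synthase genes 5, 4, 1 and 14 were lower in the Nckap1l, Dock2, Gpsm3 and Dok3 lines. In edgeR's test of slope between lines the smallest adjusted p among them was 0.135, for Atp5a1. Atp5b had a slope of -0.049 in the Dok3 line (edgeR adjusted p = 3.16e-05) and -0.032, -0.018 and 0.00 in the others, where it did not pass.

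Of the complex IV genes tested, 18 in the Nckap1l line and 16 in each other line, 9, 6, 5 and 12 fell and 1, 2, 1 and 4 rose in the Nckap1l, Dock2, Gpsm3 and Dok3 lines. Of all genes, 24.6%, 26.9%, 26% and 30.6% fell and 22.9%, 28%, 27.6% and 32.6% rose. Cox7a1, known as the form of subunit 7a of heart and skeletal muscle (chr7:30184144-30186078, plus strand), fell most in every line. Its CPM ranged from 3.53 to 23.9 with a median of 15.7 in the Nckap1l line, from 8.25 to 26.1 with 16.8 in Dock2, from 6.41 to 25.6 with 18.4 in Gpsm3 and from 3.19 to 22.9 with 12.6 in Dok3. The highest-scoring samples had 3.53, 11.6, 7.93 and 3.19 CPM, the lowest value of the line in the Nckap1l and Dok3 lines. The slopes were -0.18 (SE 0.035), -0.15 (SE 0.027), -0.20 (SE 0.023) and -0.18 (SE 0.025), with edgeR adjusted p between 2.00e-09 and 1.18e-04. In the Nckap1l line without samples with skin or muscle markers the slope was -0.10 (edgeR adjusted p = 0.0688). Of 10 smooth muscle markers 6, 3, 10 and 2 fell with the score in the Nckap1l, Dock2, Gpsm3 and Dok3 lines, against 24.6%, 26.9%, 26% and 30.6% of all genes, and their part in the fall of Cox7a1 was not tested. Cox4i1 fell by less, with slopes of -0.072, -0.059, -0.044 and -0.073, and its medians in the 8 groups lay between 264 and 308 CPM.

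Ndufa4 ran the other way. Its product, first assigned to complex I, is a subunit of complex IV (chr6:11900292-11907497, minus strand). It rose with the score in all 4 lines, by 0.068 (SE 0.023, edgeR adjusted p = 0.0158) in Nckap1l, 0.054 (SE 0.018, 0.0117) in Dock2, 0.050 (SE 0.022, 0.0477) in Gpsm3 and 0.12 (SE 0.025, 2.74e-05) in Dok3. No other member rose in all 4, whereas 18 of the 89 tested in every line fell in all 4. Ndufa4 ranged from 47.4 to 106 CPM in the Nckap1l line (median 59.2), 47.0 to 80.6 in Dock2 (54.0), 44.2 to 96.4 in Gpsm3 (58.0) and 38.1 to 151 in Dok3 (53.1). The highest of these values came from samples with skin or striated muscle markers: the first 8, 4, 3 and 6 samples by Ndufa4 in the 4 lines all held them, and over all lines the median was 75.5 CPM with the markers and 53.9 without. Without those samples the slope was 0.023 (edgeR adjusted p = 0.443) in Nckap1l, 0.036 (0.0172) in Dock2, 0.043 (0.0275) in Gpsm3 and 0.045 (0.00465) in Dok3. Ndufa4 therefore stayed called in 3 of the 4 lines and lost its call in the Nckap1l line, with a shallower slope in all 4.

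Ndufa4l2, its hypoxia-induced relative, passed the test in the Dock2 line (0.48, SE 0.20, edgeR adjusted p = 0.0404) and in the Dok3 line (0.52, SE 0.14, 9.80e-04) and not in the Nckap1l (0.077) and Gpsm3 (0.32) lines. Over all lines the 30 samples with the highest Ndufa4l2 held skin or striated muscle markers. Samples without them had 0.245 to 3.19 CPM, and the slope of Ndufa4l2 in those samples alone is not given here. The other members that rose were Ndufs4, Uqcrq and Ndufa10 in the Gpsm3 line (0.034, 0.041 and 0.043) and Cox6b2 and Cox4i2, forms of subunits 6b and 4 known from testis and lung, in the Dok3 line (0.10 and 0.057). AA467197, a relative of Ndufa4 outside the members whose product can replace it in complex IV, had slopes of 0.021 in Nckap1l, -0.019 in Dock2, 0.062 in Gpsm3 and -0.070 in Dok3. Only the last passed the test (SE 0.023, edgeR adjusted p = 0.00809), and with the epithelial score as a covariate it was -0.0041 (edgeR adjusted p = 0.865).

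**Figure D3:**
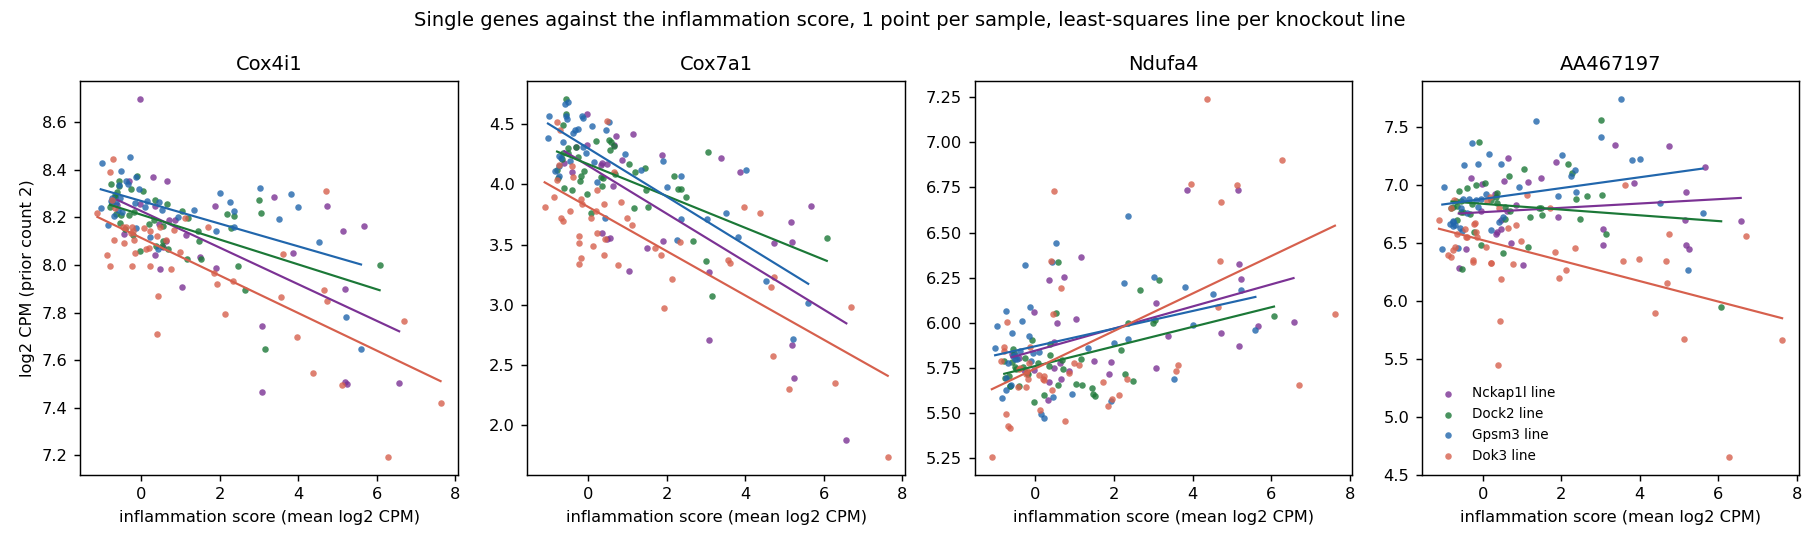
Level of Cox4i1, Cox7a1, Ndufa4 and AA467197 (log2 CPM, y axis) against the inflammation score (mean log2 CPM of the score's genes, x axis), with 1 point per sample and a color and a least-squares line per mouse line. Cox7a1 falls to 3.19 CPM in the highest-scoring sample, and the highest Ndufa4 value, 151 CPM, is in the Dok3 line.

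The 18 members that fell in all 4 lines were 20.2% of the 89, against 15.2% of all genes tested in every line, and the 1 that rose was set against 16.1%. They were Ndufa1, Ndufa6, Ndufa7, Ndufab1, Ndufb2, Ndufb4, Ndufb5, Ndufb9 and Ndufb11 of complex I, Sdha of complex II, Uqcrb and Uqcrh of complex III, Cox4i1, Cox6c, Cox7a1 and Cox7a2l of complex IV, Atp5h of ATP synthase, and Atp5s. Slopes lay under 0 in all 4 lines for 57 of 89 members (64%), against 34.7% of all genes. By contrast, 25 members were called lower in no line, among them the membrane arm subunits Ndufc1 and Ndufc2. Slopes were also tested for a difference between knockout and wild type, and 0 members passed in any line, against 0%, 0.017%, 0% and 0.00568% of all genes in the Nckap1l, Dock2, Gpsm3 and Dok3 lines (edgeR; 5, 2, 2 and 0 members at an unadjusted p under 0.05). Between lines, 0 of 91 members differed in slope, against 7.29% of all genes (edgeR; 6 members at an unadjusted p under 0.05, the smallest that of Cox6b2 with an adjusted p = 0.0598).

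Genes of neighbouring pathways were counted in the same fits, where 24.6%, 26.9%, 26% and 30.6% of all genes were lower and 22.9%, 28%, 27.6% and 32.6% higher. Of 18 genes of pyruvate oxidation and the citrate cycle, which feeds the chain, 12, 13, 4 and 12 fell with the score in the Nckap1l, Dock2, Gpsm3 and Dok3 lines and 0, 0, 2 and 0 rose. Of 18 glycolysis genes 12, 9, 12 and 12 rose and 1, 0, 0 and 1 fell. Of 40 other assembly factors, such as the copper and heme factors of complex IV, 18, 20, 12 and 24 fell and 1, 3, 3 and 3 rose, and of 15 regulators of mitochondrial biogenesis 7, 8, 5 and 9 fell and 1, 5, 4 and 1 rose. The 75 proteins of the mitochondrial ribosome, which translates the mitochondrial subunits, included 34 that rose and 2 that fell in the Gpsm3 line, while 6, 16 and 18 rose and 9, 10 and 19 fell in the Nckap1l, Dock2 and Dok3 lines. The 37 genes of the mitochondrial genome were all listed at 0 in every sample, so the subunits encoded there were not analysed here.

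Between lines, many members had less RNA in the Dok3 line. Lines were compared in wild-type males of the 3 lines sampled on day 10 (12 of Dock2, 20 of Gpsm3 and 21 of Dok3) and again in knockout males (10, 20 and 26). In wild-type males, 72 of 90 members (80%) were lower in the Dok3 line than in the Gpsm3 line and 2 were higher, against 12.1% of all genes lower and 15.9% higher (edgeR, Benjamini-Hochberg adjusted p under 0.05). The members' median log2 difference was -0.23 (quartiles -0.29 and -0.16), where that of all genes was 0.0096. In knockout males 61 of 90 (67.8%) were lower and 0 higher, against 5.86% and 5.52%, with a median of -0.20. All 61 were among the 72, so that they made up 84.7% of the wild-type list, and 67.8% of members were lower in both, against 4.45% of all genes.

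Against the Dock2 line, 42 of 90 members (46.7%) were lower in the Dok3 line and 0 higher in wild-type males, where 2.68% of all genes were lower and 3.05% higher, and 37 (41.1%) were lower and 0 higher in knockout males, against 2.1% and 4.08%. Of these, 32 were lower in both (76.2% of the wild-type and 86.5% of the knockout list, 35.6% of members, against 1.32% of all genes). These comparisons share the Dok3 samples with those above. Between the Gpsm3 and Dock2 lines, both C57BL6/J, 0 members were called in wild-type or knockout males, against 0.0108% and 0.118% of all genes (edgeR; 4 and 6 members at an unadjusted p under 0.05, and 0 called by DESeq2 or limma-voom in wild-type males). Line, strain, DSS dose, run of sample numbers and median total counts differed together between the Dok3 line and the others, and cannot be told apart.

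**Figure D4:**
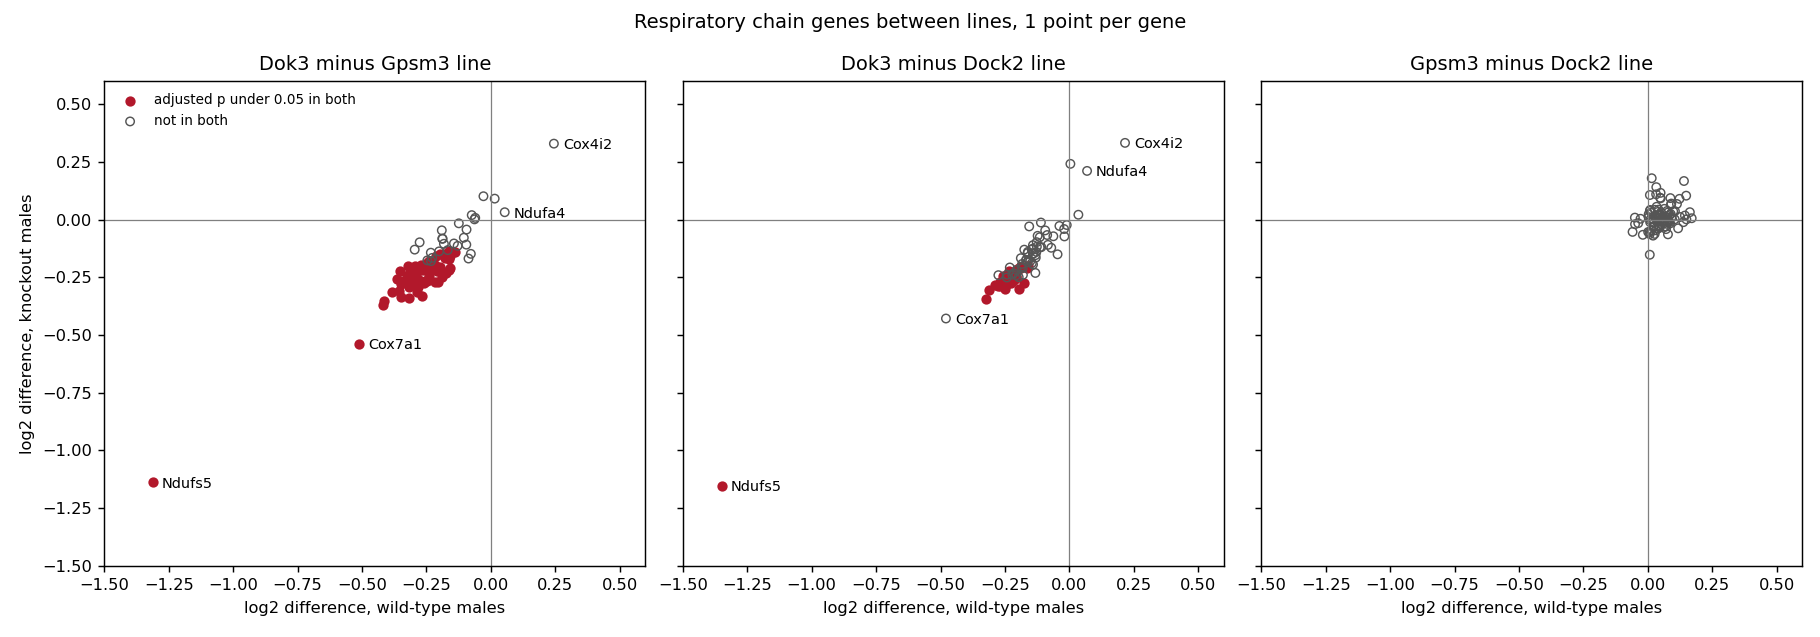
Log2 difference of each member in wild-type males (x axis) and knockout males (y axis) for Dok3 minus Gpsm3, Dok3 minus Dock2 and Gpsm3 minus Dock2, with 1 point per member, filled where the adjusted p was under 0.05 in both; Ndufa4l2 and Cox8b are not shown. In the first panel the points lie mostly under 0 on both axes around the medians of -0.23 and -0.20, with Ndufs5 farthest out at -1.31 and -1.14, and in the last panel they lie around 0.

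In complex I, 33 of 36 subunits were lower in Dok3 than in Gpsm3 wild-type males, against 12.1% of all genes, with a median of -0.20. Ndufc1 had the smallest p, with 27.0, 30.0 and 34.5 CPM as the lowest, median and highest value in Dock2 wild-type males, 28.0, 32.6 and 46.4 in Gpsm3 and 21.7, 25.5 and 31.03 in Dok3. The Dok3 median lay under the lowest value of both other lines, while the ranges overlapped. The log2 difference was -0.36 to Gpsm3 (SE 0.044, edgeR adjusted p = 3.06e-08) and -0.27 to Dock2 (SE 0.051, 3.44e-04). Ndufc2, its partner in the membrane arm, had medians of 46.6, 47.7 and 38.7 CPM (ranges 41.0 to 53.5, 41.4 to 61.7 and 31.8 to 47.0 in Dock2, Gpsm3 and Dok3), and a difference to Gpsm3 of -0.30 (SE 0.041, edgeR adjusted p = 2.80e-07). In knockout males the Ndufc2 medians were 47.2, 48.6 and 40.4 CPM, in the same order. The catalytic subunits Ndufs1 (-0.20) and Ndufv1 (-0.18) were lower as well.

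All 4 complex II genes were lower against Gpsm3, Sdha by a log2 difference of -0.24, Sdhb by -0.28, Sdhc by -0.28 and Sdhd by -0.32, and all 8 of complex III, with a median of -0.31 (Uqcrfs1 -0.35). Of 17 complex IV genes tested, 12 were lower, against 12.1% of all genes. Cox5b, a zinc-binding subunit, had 107, 126 and 149 CPM as the lowest, median and highest value in Dock2 wild-type males, 108, 134 and 170 in Gpsm3 and 72.3, 101 and 137 in Dok3. The difference to Gpsm3 was -0.38 (SE 0.052, edgeR adjusted p = 2.66e-07) and to Dock2 -0.31 (SE 0.060, 3.79e-04). Cox7b, an X-linked subunit, had medians of 145, 159 and 120 CPM in Dock2, Gpsm3 and Dok3 wild-type males and 159, 164 and 129 in knockout males. In both sets the Dok3 line was the lowest and its range, 89.8 to 152 CPM in wild-type males, overlapped those of the others. Cox7a2, the ubiquitous partner of Cox7a1, was lower by -0.42 and Cox7a1 by -0.51, and Ndufa4, at medians of 56.6, 57.2 and 52.3 CPM, had a difference of 0.054 (SE 0.11, edgeR adjusted p = 0.750).

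Of 16 ATP synthase genes 13 were lower, against 12.1% of all genes. Atp5b had medians of 1098, 1144 and 949 CPM in Dock2, Gpsm3 and Dok3 wild-type males, with ranges of 963 to 1190, 967 to 1495 and 763 to 1205. Its difference to Gpsm3 was -0.27 (SE 0.045, edgeR adjusted p = 1.45e-05), close to that of Atp5a1, -0.28. Atp5mpl, a small membrane subunit, was lower by -0.35 (SE 0.050, edgeR adjusted p = 8.19e-07). Of the 8 complex I assembly factors 2 were lower, with a median of -0.091, and Atp5s was not called.

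The rises were of Ndufa4l2 (2.11, SE 0.67, edgeR adjusted p = 0.0162) and Cox8b (2.03, SE 0.72, 0.0292). Their medians were 0.889 and 0.642 CPM for Ndufa4l2, and 0.468 and 0.380 CPM for Cox8b, in Dok3 and Gpsm3 wild-type males, and the differences came from a few samples of up to 30.5 and 25.3 CPM. Of the samples with skin or striated muscle markers, 5 were Dok3 and 1 Gpsm3 wild type. Without them, or by limma-voom, or in knockout males, 0 members were higher, and 70 were lower against Gpsm3 (median -0.22) and 32 against Dock2 (median -0.18) without them. Without the 5 Dok3 samples whose sex transcripts went against the label, 73 and 43 were lower. With the inflammation score as a covariate the lower members were 70 (median -0.21) and 50 (median -0.17). The shares of all genes called in these alternative settings are not given here.

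**Figure D5:**
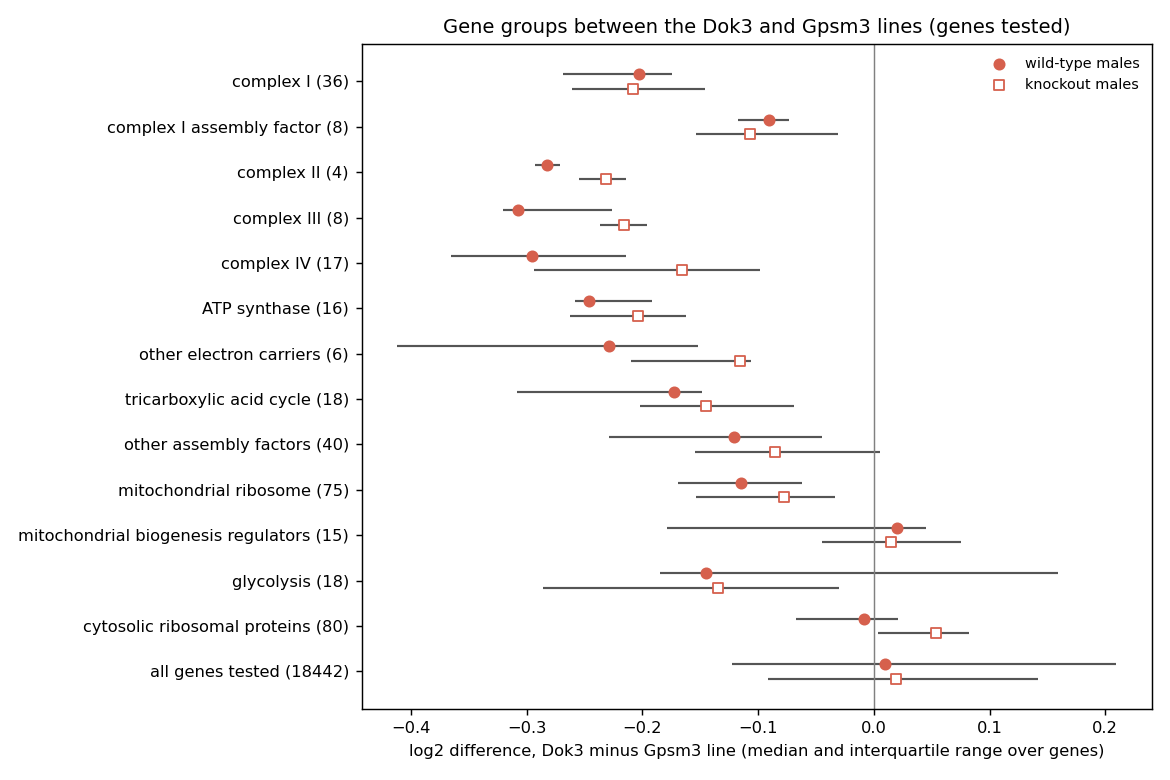
Median log2 difference, Dok3 minus Gpsm3 (x axis), of each gene group (y axis; number of genes in brackets), with lines over the interquartile range of its genes, in wild-type (filled) and knockout males (open). The groups of the respiratory chain lie under 0 in both, complex III lowest in wild-type males at -0.31, while the cytosolic ribosomal proteins lie at -0.0088 and 0.053.

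Other mitochondrial genes were lower in the Dok3 line too. In wild-type males, 14 of 18 genes of pyruvate oxidation and the citrate (tricarboxylic acid) cycle, 28 of 75 mitochondrial ribosomal proteins, 19 of 40 other assembly factors and all 6 other electron carriers tested, cytochrome c and the electron transfer flavoproteins among them, were lower than in Gpsm3, and 3 of 15 biogenesis regulators. In knockout males these counts were 7, 14, 6, 3 and 2. Of all genes, 12.1% were lower in wild-type males and 5.86% in knockout males. Of 80 cytosolic ribosomal proteins, short and abundant transcripts like many members, 11 were lower and 2 higher in wild-type males. Of all genes, 12.1% were lower and 15.9% higher there. In 4 bins of exon length the members' median lay between -0.24 and -0.19, and that of other genes between -0.036 and 0.023. In the same comparison 7 of 15 epithelial and 7 of 10 colonocyte markers (median -0.94) were lower, against 12.1% of all genes. Higher were 5 of 24 inflammation genes and 5 of 12 neutrophil markers, against 15.9% of all genes. In knockout males 1 of 15 epithelial and 2 of 10 colonocyte markers were lower against Gpsm3, where 5.86% of all genes were lower. There 3 of 26 inflammation genes and 0 of 12 neutrophil markers were higher, where 5.52% of all genes were higher. Against Dock2 in wild-type males 0 genes of these 4 lists were called, where 2.68% of all genes were lower and 3.05% higher. A marker that was not called may still differ. The part of these cells in the differences was not tested further.

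Ndufs5, an accessory subunit of complex I (chr4:123712710-123718202, minus strand), was picked after its values were seen. It had the largest difference of any member called lower, -1.31 to Gpsm3 (SE 0.25, edgeR adjusted p = 8.21e-05) and -1.35 to Dock2, and -1.14 and -1.15 in knockout males. In the 113 samples of the other lines it lay between 5.15 and 9.93 CPM. In the Dok3 line it fell into separate sets: 18 samples (9 wild type, 9 knockout) had at most 1.22 CPM and 29 (12 wild type, 17 knockout) had at least 2.76, with none between. The sets did not follow genotype.

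A processed pseudogene of Ndufs5, listed as BC002163 (chr16:42955631-42955949), is identical to the Ndufs5 transcript at 317 of its 319 bases (99.4%), so that reads of either can fall on the other. BC002163 lay between 0.559 and 2.79 CPM in the other lines (median 1.31) and between 0.905 and 13.5 in the Dok3 line (median 6.71), where it was 9.09 to 13.5 in the 18 samples with little Ndufs5 and 0.905 to 7.79 in the other 29. The sum of both genes had a median of 8.21 CPM in the Nckap1l line, 8.95 in Dock2, 8.75 in Gpsm3 and 10.2 in Dok3. What was low for Ndufs5 in the Dok3 line was thus high for its pseudogene, and with the counts of both added the difference to Gpsm3 was 0.24 (edgeR adjusted p = 0.0133), the reverse of the single gene.

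Pseudogenes of other members showed a like division between lines. Gm6969, a copy of Cox7a2l on chromosome 12, had at most 1.14 CPM in the other lines (median 0.497) and a median of 8.0 CPM in the Dok3 line, where 40 of 47 samples lay over that highest value. Gm15920, a copy of Ndufa12 on chromosome 5, had at most 1.40 CPM in the other lines (median 0.753) and a median of 4.02 in Dok3, with 34 of 47 samples over it. The other Dok3 samples lay within the range of the C57BL6/J lines for each of these copies, so the samples labelled 129 were not alike there. Whether they carried a mix of 129 and C57BL6/J alleles was not tested. The reads were mapped to mm10, the genome of C57BL6/J mice, and how reads with 129 alleles were placed was not tested. With pseudogene counts added, Cox7a2l, whose protein is known to be shorter in C57BL6/J than in 129 mice, had a difference to Gpsm3 of -0.11 (edgeR adjusted p = 0.133) in place of -0.30 (2.23e-04), and Ndufa12, an accessory complex I subunit, of -0.083 (0.165) in place of -0.22 (1.99e-04). In all, 36 members had such copies, 67 of them. With all copies added, 68 members were lower and 3 higher against Gpsm3 (median -0.23), and 39 lower and 0 higher against Dock2. These counts are given without the share of all genes called in that fit, and are not set against a background.

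In the Dock2 line, sampled in a single run of numbers, 20 females were compared with 22 males. Of 89 members 8 were lower in females (8.99%, against 5.5% of all genes) and 2 higher (2.25%, against 4.26%; edgeR, Benjamini-Hochberg adjusted p under 0.05). Ndufa10, a complex I subunit, had a median of 95.0 CPM (80.7 to 108) in females and 105 (89.0 to 128) in males, a log2 difference of -0.15 (SE 0.032, edgeR adjusted p = 0.00160). Atp5a1 had 893 (679 to 1083) and 983 (864 to 1188), a difference of -0.16 (SE 0.038, edgeR adjusted p = 0.00538). Atp5c1, the gamma subunit of ATP synthase, Ndufa9 and Ndufs8 of complex I differed by -0.13, -0.15 and -0.14. Cox6b2 was higher in females, at 2.17 CPM (1.68 to 3.33) against 1.70 (1.18 to 2.46), as was Cox4i2, by 0.37. The ranges of each gene overlapped between the sexes. With the inflammation score as a covariate, 16 members were lower and 1 higher, and the share of all genes called in that fit is not given here.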

How the data were processed

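RNA of distal colon was ribosomal RNA-depleted and sequenced (KAPA Stranded RNA-Seq with RiboErase). Per the paper's methods and the labels, the authors used STAR with mm10 and featureCounts of Subread, and the deposited files hold raw counts of 39179 genes per sample. Tool versions, annotation release and strand setting are not given in the sources used here. Names, exon lengths and positions came from GENCODE vM21 on GRCm38, the same build, which named 37607 genes. At the observed totals, counting error is largest for the 15 members under a median of 10 CPM.

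Counts were normalized by TMM, filtered by filterByExpr and fitted across all genes in edgeR 4.0.16 (R 4.3.3; quasi-likelihood test), with Benjamini-Hochberg adjustment and a threshold of 0.05. The genotype and score fits were made within a line, with sex as a covariate where it varied. The line fit took males of the Dock2, Gpsm3 and Dok3 lines. CPM were TMM-normalized, and log2 CPM had a prior count of 2. Genes of the inflammation score were left out of the score fits. The fits were tested on simulated data. Alternatives were other scalings, no filter, DESeq2 1.42.0, limma-voom (limma 3.58.1), omitted samples, other scores and covariates. Leaving out the highest-scoring sample and adding pseudogene counts were chosen after seeing the data. A pseudogene was taken as a copy of a member where they shared at least 20 words of 31 bases. Tables used Python 3.11.15 with pandas 2.3.3 and scipy 1.17.1.

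The members and gene lists were chosen with earlier results of these data known. Named genes were 22 fixed members, the 3 lowest and 3 highest called slopes per line, up to 5 called members per direction by p in other fits or else the member with the smallest p, and AA467197. Members named for function or count besides these, and Ndufs5, Ndufa12, BC002163, Gm6969 and Gm15920, were chosen after their values were seen. Single-gene results of 1 member are not reported here, and it remains in the counts.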

Additional observations from a re-analysis of the deposited data

Results flagged for a closer look

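AA467197, the relative of Ndufa4 outside the members, differed in its slope on the inflammation score between lines by a test of the difference itself (edgeR's quasi-likelihood test of the score by line terms, Benjamini-Hochberg adjusted p = 0.0246). The slopes were 0.021 in the Nckap1l line, -0.019 in Dock2, 0.062 in Gpsm3 and -0.070 in Dok3. AA467197 ranged from 77.5 to 162 CPM in the Nckap1l line (median 109), 61.4 to 188 in Dock2 (112), 76.7 to 213 in Gpsm3 (117) and 25.04 to 128 in Dok3 (87.8), and the ranges overlapped. In wild-type males it was also lower in the Dok3 line than in Gpsm3, by -0.52 on the log2 scale (edgeR adjusted p = 2.16e-04).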

How the results depend on the processing

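No paired analysis was possible because the groups share no replicate numbers in the labels. In each line 0 members were called between genotypes under every alternative run. Of the other counts of members called, those that moved by over 1.5 times were as follows, without the share of all genes called in each setting. Leaving out samples with skin or striated muscle markers gave 1 lower and 0 higher with the score in Nckap1l, 21 lower in Dock2 and 2 higher in Dok3, and 0 higher in Dok3 than Gpsm3. The interferon score gave 1 lower and 0 higher in Nckap1l, 1 lower and 0 higher in Dock2, 1 and 1 in Gpsm3, and 1 higher in Dok3. The epithelial covariate gave 24 lower and 2 higher in Nckap1l, 60 lower in Dock2 and 37 lower in Dok3. Without the highest-scoring sample, 24 were lower in Nckap1l and 8 higher in Gpsm3. No filter gave 1 higher in Gpsm3, and limma-voom 1 higher in Dock2. For Dok3 against Gpsm3, limma-voom and knockout males gave 0 higher. Between sexes, 16 were lower with the inflammation covariate, and 1 was higher with no filter, DESeq2, limma-voom or that covariate. Of the named genes' values under alternatives, 474 kept direction and call, 36 lost the call, 9 gained it and 3 turned: Ndufa4 in Nckap1l to -0.027 with the interferon score (edgeR adjusted p = 0.762), and Ndufs5 to 0.24 against Gpsm3 and 0.19 against Dock2 with pseudogene counts added. The cause was not tested, except that added pseudogene counts change Ndufs5 by construction. Treatment with DSS was not known per sample, so slopes mix treated and untreated mice, and score genes come from the same libraries as the members. Leaving out single replicates was not run, since every group held over 5.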

Other observations

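In the Dok3 line, where Ndufs5 falls into separate sets of samples, 17 of 16139 genes compared had a rank correlation with Ndufs5 over 0.6 in size, and 14 of these lie on chromosome 4, where Ndufs5 is, between 69925630 and 134535387 (1013 genes of chromosome 4 were compared). In the Nckap1l line 135 of 1954 such genes lay on chromosome 4, in the Gpsm3 line 7 of 83 and in the Dock2 line 1 of 8. These counts are a description over samples that share a library type and fall into sets, and carry no test.

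In the Nckap1l line the members' summed CPM had a median of 7707 in 12 females and 9146 in 19 males. Of the 15 wild-type samples 8 were female, and of the 16 knockout samples 4. Of the 12 females, 9 fall in the first run of sample numbers, in which 13 of 14 samples held skin or striated muscle markers. The part of genotype and of those markers in the difference between the sexes was not tested.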
